A study of Gallus gallus with 2 samples.

Results

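The genes described here are those whose products drive, time or restrain the cell cycle and the copying of DNA, together with the genes that share their names. They were chosen by symbol alone, as every listed gene whose name belongs to the cyclins A, B, D and E, the cyclin-dependent kinases (CDK), the CDKN genes, the CDC, MCM, E2F, CENP, BUB, AURK, PLK, ORC, TOP2 and RRM families, or is PCNA or MKI67. The pattern found 108 of 15073 listed genes. Of these, 102 were treated as proliferation genes and 4, by symbol alone, as inhibitors of CDKs (CDKN1A, CDKN1B, CDKN2A and CDKN2C). The remaining 2 are other CDKN genes (CDKN3 and CDKN2AIP). By textbook role, 71 of the 108 were assigned to the cell cycle. The other 37 were set apart, many of them known from other pathways, such as transcription, splicing or the actin cytoskeleton. The line is not sharp. CDKN3 and CDC34, which have links to the cycle, are among the 37. TOP2B and RRM2B, which resting cells also make, are among the 71. The study asked how tyrosine added to the feed of Xichuan black-bone chickens, a breed with dark meat, affects the deposition of melanin in breast muscle. RNA was sequenced from the breast muscle of test group IV, which was fed the basal diet with 0.8% tyrosine, and of the control group, which was fed the basal diet alone, with samples taken at week 12 after a fast. In each group the RNA of 3 birds was pooled into 1 library. There are therefore no replicates, and no difference given here has a replicate check.

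The cell cycle is run by CDKs, enzymes that are active only when bound to a cyclin. D-type cyclins with CDK6 and its relatives open the cycle by releasing E2F transcription factors from the RB protein, cyclins E and A with CDK2 start DNA replication, and B-type cyclins with CDK1 start mitosis. Origins of replication are marked by the origin recognition complex (ORC) and loaded with the MCM helicase, while the kinetochore, the spindle checkpoint and the anaphase-promoting complex (APC/C) separate the chromosomes. In grown skeletal muscle the nuclei of the fibres have left the cycle, a state that CDK inhibitors help to hold, and the cells that can still divide are satellite cells and the cells of vessels, connective tissue and blood.

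The libraries held 14318101 counted fragments in test group IV and 13135159 in the control group. Values are given as FPKM, the fragments of a gene corrected for transcript length and for the depth of the library, so that levels can be compared between genes. A ratio is the FPKM of test group IV over that of the control group. Each ratio stands with an exact 95% Clopper-Pearson interval calculated from the fragment counts, which covers counting error only and leaves out the variation between birds, pools and library preparations. Genes with at least 20 fragments over both libraries were compared, 11936 of all genes and 96 of the 108. No listed gene had fewer than 1 fragment in the control library, and genes unseen there were not analysed here, which among sparsely counted genes favours ratios below 1. The current chicken annotation GRCg7b holds 128 symbols of the pattern, of which 22 were not listed by symbol, among them MKI67, the gene of the Ki-67 antigen, as well as CDC6, MCM4, CENPE and AURKB. A further 5006 listed genes carried no symbol. For 2 of the 22 symbols GRCg7b gives an older symbol that is listed here, CCNB2 for CCNB1 and CDKN2A for CDKN2B. These matches are by symbol alone, and CDKN2A is also a current symbol of GRCg7b, so that the listed gene need not be CDKN2B. The other symbols of the 22 have no value here under their own symbol, MKI67 included, and some may be among the genes without a symbol.

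Muscle fibre genes were abundant in both libraries. The 5 of 9 fibre markers that were listed summed to 26485 FPKM in test group IV and 25303 FPKM in the control group, or 3.95% and 3.88% of all fragments, although PVALB had only 5 fragments in test group IV and 1 in the control group. Markers of other cell types that can divide were present in both. The 6 listed endothelial markers summed to 52.2 FPKM in each library. The 5 listed fibroblast markers summed to 368 FPKM in test group IV and 315 FPKM in the control group. For the 5 listed leucocyte markers the sums were 38.1 FPKM in test group IV and 33.9 FPKM in the control group. The 6 listed satellite cell and myoblast markers summed to 1694 FPKM in test group IV and 1511 FPKM in the control group. Most of that sum was DES, with 1577 FPKM in test group IV and 1432 FPKM in the control group. Muscle fibres make DES too, so that this sum does not measure cells that can divide. The listed adipocyte markers (3 of 4) summed to 44.5 FPKM in test group IV and 69.1 FPKM in the control group, and the 9 melanocyte markers to 46.3 FPKM in test group IV and 23.4 FPKM in the control group. Most of the melanocyte sum was MITF, and without it the other 8 summed to 13.4 FPKM in test group IV and 2.33 FPKM in the control group. None of the listed markers was at 0 in test group IV, and no listed gene could be at 0 in the control group, because each had at least 1 fragment there. Markers that were not listed have no value here. In such bulk tissue, fewer cells of a type and less RNA per cell cannot be told apart, and the part of these cell types in the values that follow was not tested.

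For most of the 96 genes compared, 68, the interval included no difference between the 2 libraries, against 6911 of all 11936 genes. Thinly counted genes have wide intervals, which cannot show that a difference is small. Of the 96, 62 had a ratio above 1 and 34 a ratio below 1, against 7194 and 4742 of all 11936 genes. Their median log2 ratio was 0.12, against a median of 0.09 over all 11936 genes. Only 3 were at least 2-fold higher in test group IV (AURKA, CENPH and MCM9), which is 3.12% of the 96, against 3.47% of all genes. At least 2-fold lower was 1 gene, PLK1, or 1.04%, against 3.04% of all genes. The counting interval lay above no difference for 24 genes (25%), against 27.3% of all genes, and below it for 4 genes (4.17%: CDC42BPA, CDC42BPB, CDK19 and CDK5), against 14.8% of all genes. The shares of higher values were thus near those of all genes, and the shares of lower values were below them. Interval shares, here and below, depend on the number of fragments. Its median over the 108 genes was 88.5 in test group IV and 68.5 in the control group. Over all genes it was 107 and 93.

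These direction counts moved with the scaling. The authors' FPKM values rest on a depth ratio of 1.09025, under which the median gene was 0.09 higher in test group IV on the log2 scale. With the TMM factors of edgeR the ratio was 1.16124 and the median gene stood at 0.00. The intervals above and below no difference then numbered 16 and 8 of the 96, against 24 and 4 on the deposited scale, so that the share above among them was 66.7%, against 85.7%. Over all genes the same share was 48.0% with TMM, against 64.9% on the deposited scale. With TMM the intervals of 2267 of all 11936 genes lay above no difference and those of 2452 below it, against 3263 and 1762 on the deposited scale. The intervals of 16 of the 96 genes stayed above no difference under all 4 scalings tried (AURKA, BUB3, CDC27, CDC2L1, CDC34, CDC42, CDC42EP3, CDKN1A, CDKN1B, CENPH, CENPN, E2F4, MCM6, MCM9, PLK2 and TOP2B), and those of CDC42BPA and CDK5 stayed below it. The strictest scaling for a higher ratio was TMM, with 2267 of all 11936 genes above no difference. For a lower ratio it was the depth without mitochondrial genes, with 1633 of all genes below it. The intervals of CDC16, CDC37L1, CDC5L, CDK7, CDKN2C, ORC5, PCNA and RRM2B were above no difference on the deposited scale but included it with TMM.

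**Figure D1:**
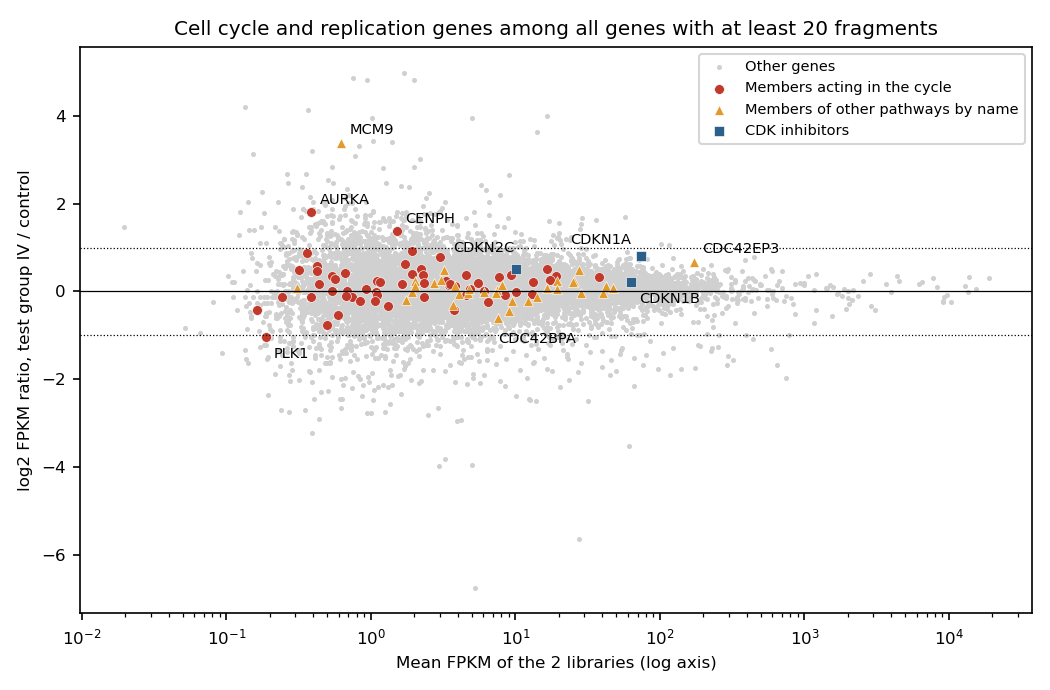
Log2 FPKM ratio of test group IV over the control group (vertical axis) against the mean FPKM of both libraries (horizontal axis, log scale), for genes with at least 20 fragments and at least 1 in each library. Each point is a gene, dotted lines mark 2-fold, and only AURKA, CENPH, MCM9 and PLK1 among the coloured genes reach them, while CDKN1A stands at 0.80 among the abundant genes.

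The proliferation genes that act in the cycle were expressed at low levels in both libraries. An FPKM of at least 1 was reached by 37 of 67 (55.2%) in test group IV and by 37 of 67 (55.2%) in the control group, against 70.5% and 70.0% of all listed genes. At least 10 FPKM was reached by 8 (11.9%) in test group IV and 7 (10.4%) in the control group, against 28.3% and 27.2% of all genes. The most abundant of them was CDC27, a subunit of the APC/C, at 42.1 FPKM in test group IV and 33.8 FPKM in the control group. The lowest was CENPL, a kinetochore protein, with 3 fragments in test group IV and 4 in the control group. The genes of other pathways by name had a median level of 7.25 FPKM in test group IV and 7.44 FPKM in the control group, and the proliferation genes acting in the cycle 1.203 FPKM in test group IV and 1.14 FPKM in the control group. Between members of a pair, the form linked to dividing cells was the rarer. TOP2B, the topoisomerase II that resting cells also make, stood 31.3 times above TOP2A, its counterpart of dividing cells, in test group IV, and 24.6 times in the control group. RRM2B, the ribonucleotide reductase subunit that supplies nucleotides outside S phase, stood 20.1 times above the S-phase subunit RRM2 in test group IV and 17.6 times in the control group.

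**Figure D2:**
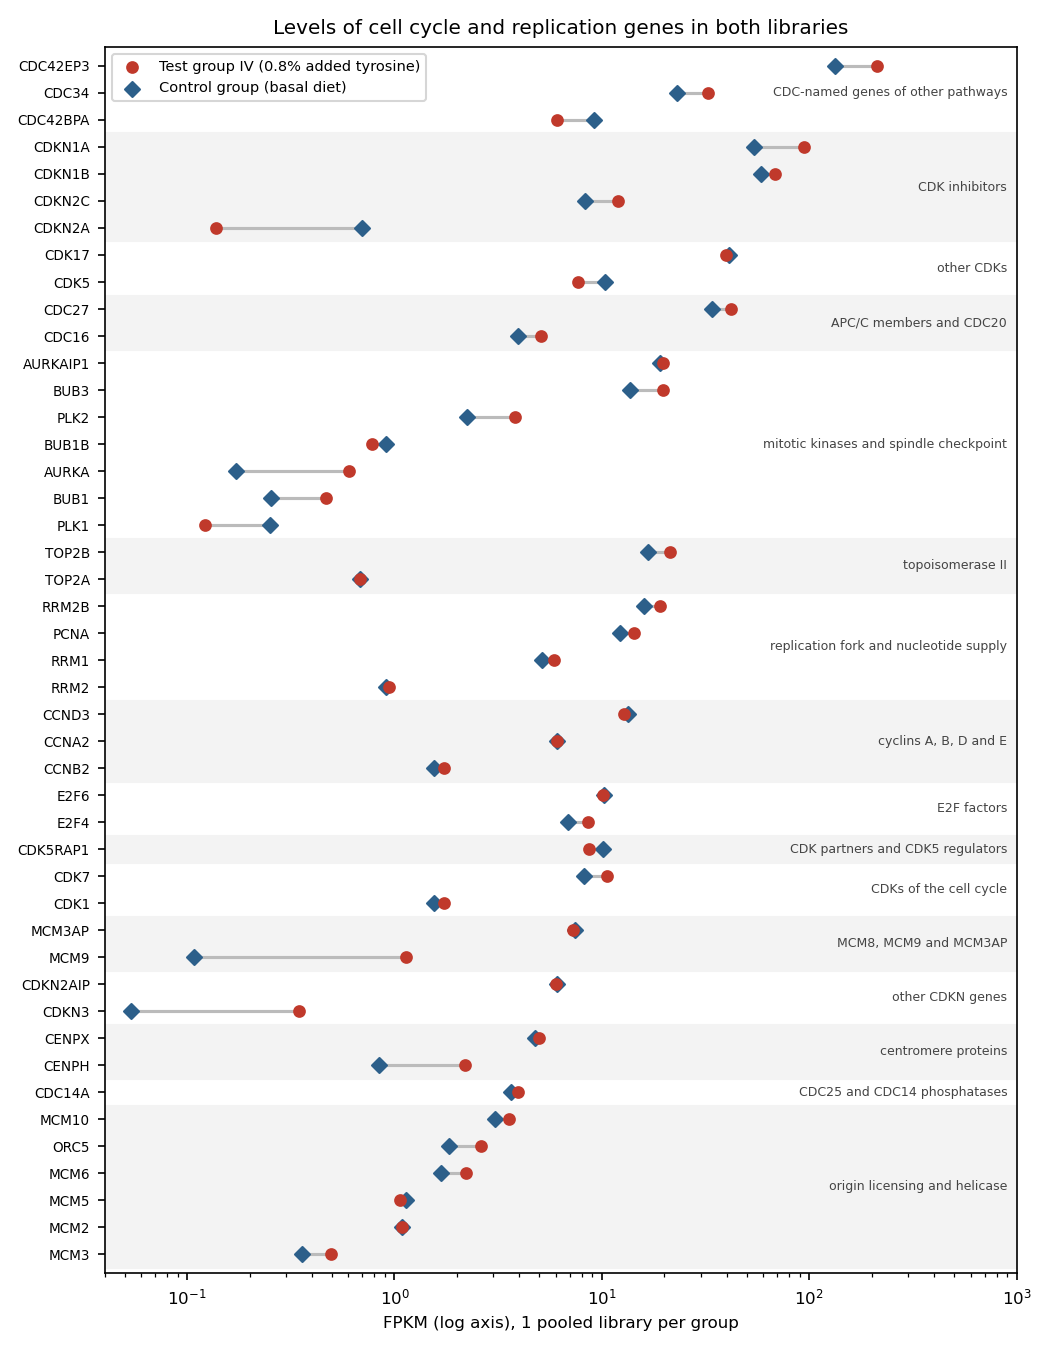
FPKM (log axis) of the cell cycle and replication genes chosen by rule, in test group IV and in the control group, with 1 point per library and a line joining the points of a gene. The inhibitors CDKN1A (94.5 FPKM in test group IV, 54.3 FPKM in the control group) and CDKN1B stand far to the right of CDK1 and of the cyclins.

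The CDK inhibitors CDKN1A and CDKN1B were the most abundant genes acting in the cycle. Ratios above 1 were found for 3 of the 4 inhibitors, against 7194 of all 11936 genes compared. CDKN1A, which encodes the inhibitor p21 and lies on chromosome 26 (bases 1588453 to 1591609 of Galgal5), had 2073 fragments in test group IV and 1092 in the control group, or 94.5 and 54.3 FPKM. Its ratio was 1.74 (interval 1.62 to 1.88), and it stayed above no difference under every scaling. CDKN1B, which encodes the related inhibitor p27 of quiescent cells, had 68.03 FPKM in test group IV and 58.7 FPKM in the control group, a ratio of 1.16 (1.08 to 1.24). CDKN1A thus stood 1.39 times above CDKN1B in test group IV, whereas it stood at 0.925 times CDKN1B in the control group. CDKN2C, an INK4 inhibitor that binds CDK6, had 86 fragments in test group IV and 55 in the control group, and the lower bound of its ratio of 1.43 was 1.01. CDKN2A, the tumour suppressor gene of the INK4 locus in mammals, went the other way at a very low level, with 3 fragments in test group IV and 14 in the control group. Its ratio of 0.197 had an interval below no difference (0.0362 to 0.704), but it fell short of the 20 fragments set for the comparison. The annotation GRCg7b also lists CDKN2A as an older symbol of CDKN2B. CDKN2A was placed with the inhibitors by symbol, and whether the chicken gene inhibits CDKs was not tested. Summed over the 4 genes, the inhibitors reached 175 FPKM in test group IV and 122 FPKM in the control group. The median log2 ratio of the 3 compared inhibitors was 0.52, which is the value of CDKN2C alone. It was 0.12 for the 92 proliferation genes compared and 0.15 for the 59 of them that act in the cycle. With TMM the interval of CDKN2C included no difference. The level of CDKN1A was 54.6 times that of CDK1 in test group IV and 35.04 times in the control group.

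CDKN3 encodes a phosphatase that acts on CDKs and is not an inhibitor of the INK4 or CIP/KIP type. It had 7 fragments in test group IV and 1 in the control group, with an interval of the log2 ratio from -0.28 to 8.18. The product of CDKN2AIP binds the ARF protein, and the gene had 5.998 FPKM in test group IV and 6.11 FPKM in the control group.

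The cyclins of the cell cycle were at the same summed level in both libraries, 33.9 FPKM in test group IV and 34.2 FPKM in the control group, and the intervals of all 7 included no difference. CCND3, the D-type cyclin that differentiated muscle keeps, was the most abundant, with 12.7 FPKM in test group IV and 13.3 FPKM in the control group (log2 ratio -0.06, interval -0.27 to 0.14). CCND1, the D-type cyclin induced by growth factors, had 1.203 FPKM in test group IV and 1.02 FPKM in the control group, so that CCND3 stood 10.6 times above it in test group IV and 13.1 times in the control group. CCNE1, which activates CDK2 for S phase, had 8.26 FPKM in test group IV and 8.70 FPKM in the control group. CCNA2, the cyclin of S phase and early mitosis, had 167 and 152 fragments in test group IV and the control group, with 6.10 and 6.05 FPKM. CCNB2, a mitotic cyclin, had 1.74 FPKM in test group IV and 1.55 FPKM in the control group. For CCNA2 the interval of the log2 ratio ran from -0.31 to 0.34. GRCg7b gives CCNB2 as an older symbol of CCNB1, and the gene is named here as deposited.

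The CDKs that run the cycle were less abundant than the cyclins, with a summed level of 16.6 FPKM in test group IV and 13.5 FPKM in the control group. CDK1, the kinase of mitosis, had 39 fragments in test group IV and 32 in the control group, or 1.73 and 1.55 FPKM, and a log2 ratio of 0.16 (-0.55 to 0.88). CDK2 had 27 fragments in test group IV and 16 in the control group, and its interval also included no difference (-0.31 to 1.62). The gene of the melanosome protein PMEL, with 92 fragments in test group IV and 10 in the control group, ends 232 bases from CDK2. CDK6 had 471 fragments in test group IV and 469 in the control group, a log2 ratio of -0.12 (-0.31 to 0.07), and its interval lay below no difference with TMM (-0.40 to -0.022) and with the size factors of DESeq2 (-0.39 to -0.011). CDK7, the kinase that activates the other CDKs and is part of a general transcription factor, was the most abundant, with 10.5 FPKM in test group IV and 8.17 FPKM in the control group (0.37, 0.08 to 0.65). CDC25A, a phosphatase that removes the inhibitory phosphate from CDKs, had 38 fragments in test group IV and 44 in the control group. The phosphatase CDC14A, which opposes CDKs late in mitosis in yeast, had 3.96 FPKM in test group IV and 3.65 FPKM in the control group, and its relative CDC14B 3.21 and 4.29 FPKM. The intervals of all 3 phosphatases included no difference on the deposited scale, and that of CDC14B lay below it with TMM and with the size factors of DESeq2.

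The E2F factors carry the transcriptional programme that the CDKs release. E2F1 and E2F3, the activators, were sparse, with 32 fragments of E2F1 in test group IV and 21 in the control group (log2 ratio 0.48, -0.36 to 1.35). E2F3 had 19 in test group IV and 13 in the control group (0.42, -0.67 to 1.56). E2F4, a repressor of resting cells, had 8.57 FPKM in test group IV and 6.86 FPKM in the control group (log2 ratio 0.32, 0.11 to 0.53). E2F6, a repressor that acts without RB, was the most abundant of the family and stood at 10.1 FPKM in test group IV and 10.2 FPKM in the control group (-0.015, -0.22 to 0.19). E2F5, E2F7 and E2F8 had log2 ratios between 0.16 and 0.20, and their intervals included no difference. E2F4 had the only interval of the family that lay above no difference, while the sparser activators had higher ratios with wider intervals, and a difference between members was not tested.

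The machinery of replication was sparse. Of the 12 compared genes of origin licensing and the helicase, 2 (16.7%, MCM6 and ORC5) had an interval above no difference and none an interval below it, against 27.3% and 14.8% of all genes. The 13 genes of origin licensing and the helicase summed to 947 fragments in test group IV and 725 in the control group, a ratio of 1.198 (1.09 to 1.32) on the deposited scale, with 240 of the fragments in test group IV and 167 of those in the control group from MCM6. MCM2, MCM3, MCM5 and MCM6 encode subunits of the replicative helicase. MCM2 had 78 fragments in test group IV and 72 in the control group (log2 ratio -0.01, -0.49 to 0.47), MCM3 had 24 and 16 (0.46, -0.51 to 1.47), and MCM5 had 47 and 46 (-0.09, -0.71 to 0.53). MCM6, the best counted of them, had 240 fragments in test group IV and 167 in the control group (0.40, 0.11 to 0.69). The intervals of the other subunits overlap that of MCM6, and a difference between subunits was not tested. MCM10, which joins the helicase as replication starts, was the most abundant of the 13 genes, with 3.58 FPKM in test group IV and 3.05 FPKM in the control group (0.23, -0.13 to 0.60). Among the ORC subunits, ORC5 had 118 fragments in test group IV and 76 in the control group (0.51, 0.08 to 0.95), while ORC1, a subunit that human cells degrade in S phase, had 15 in each library. ORC6 had 20 fragments in each library. CDC45, another helicase partner, had 21 fragments in test group IV and 15 in the control group, and CDC7, the kinase that fires origins, had 6 and 7.

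At the fork, PCNA and the nucleotide supply showed small differences. PCNA, the clamp that holds DNA polymerase on its template, lies on chromosome 22 (342048 to 345143) and had 494 fragments in test group IV and 390 in the control group, or 14.3 and 12.3 FPKM. Its log2 ratio was 0.22 (0.02 to 0.41), against a median of 0.09 over all genes, and with TMM its interval included no difference. RRM1, the large subunit of ribonucleotide reductase, had 5.85 FPKM in test group IV and 5.15 FPKM in the control group (0.19, -0.03 to 0.40). The S-phase subunit RRM2 had 34 fragments in test group IV and 30 in the control group (0.06, -0.70 to 0.81). RRM2B had 19.0 FPKM in test group IV and 15.96 FPKM in the control group (0.25, 0.04 to 0.46), an interval that included no difference with TMM. TOP2A, a marker of dividing cells, had 0.681 FPKM in test group IV and 0.679 FPKM in the control group (0.00, -0.41 to 0.42). TOP2B had 21.3 FPKM in test group IV and 16.7 FPKM in the control group (0.35, 0.24 to 0.45), and its interval stayed above no difference under all 4 scalings. On the deposited scale both pairs thus showed an interval above no difference only in the form that resting cells make. With TMM this held for TOP2B alone. RRM2 and TOP2A were more thinly counted, and their intervals include the log2 ratios of their partners. A difference between the forms of a pair was not tested.

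The kinetochore genes were the most thinly counted family. Of the 14 CENP genes, 7 had fewer than 20 fragments, and the 14 summed to 268 fragments in test group IV and 213 in the control group. CENPH, a protein of the inner kinetochore, lies on chromosome Z (21911041 to 21917215) and had 45 fragments in test group IV and 16 in the control group, or 2.18 and 0.845 FPKM. Its ratio was 2.58 (1.43 to 4.89). CENPN, which binds the centromeric nucleosome, had 56 fragments in test group IV and 27 in the control group, a ratio of 1.90 (1.18 to 3.13). The other compared kinetochore genes had intervals that included no difference. CENPX, which also works in DNA repair and was the most abundant, had 4.96 FPKM in test group IV and 4.78 FPKM in the control group. CENPT had 45 fragments in test group IV and 48 in the control group, and CENPF, a large protein made before mitosis, had 22 and 27. The centromeric histone CENPA had 3 fragments in test group IV and 1 in the control group, which does not allow a comparison.

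The mitotic kinases and checkpoint genes went in both directions. AURKA, the kinase that builds the spindle poles, had 19 fragments in test group IV and 5 in the control group, or 0.602 and 0.173 FPKM, a ratio of 3.48 (1.26 to 11.9). GRCg7b holds AURKB but not the symbol AURKA, so that the identity of the gene rests on the deposited name (chromosome 20, 12229605 to 12236352). Whether it is AURKB was not tested. PLK1, the polo-like kinase of mitosis, was the single compared gene at least 2-fold lower, with 9 fragments in test group IV and 17 in the control group, or 0.122 and 0.251 FPKM, and its interval included no difference (0.191 to 1.15). PLK4, the kinase of centriole copying, had 16 fragments in test group IV and 25 in the control group. BUB1 had 30 fragments in test group IV and 15 in the control group, with an interval of the log2 ratio from -0.06 to 1.88, and BUB1B, its partner in the spindle checkpoint, had 44 and 47 fragments. Of these 5 kinase genes, 2 had ratios above 1 and 3 below 1, and their summed fragments gave a ratio of 0.993. That value depends on the choice of genes, because the kinases PLK2 and PLK3 of the same group are left out. PLK3 had 48 fragments in test group IV and 47 in the control group. All 9 genes of the group summed to 1259 fragments in test group IV and 964 in the control group. Their ratio was 1.198 (1.101 to 1.304), with BUB3 and AURKAIP1 the best counted. The well counted genes of the group have further roles. BUB3, a checkpoint protein that also works in splicing, had 496 fragments in test group IV and 317 in the control group, or 19.6 and 13.7 FPKM, a log2 ratio of 0.52 (0.32 to 0.73). PLK2, a polo-like kinase induced by stress, had 110 fragments in test group IV and 59 in the control group (0.77, 0.30 to 1.26). AURKAIP1, whose product binds AURKA and is part of the mitochondrial ribosome, was the most abundant of the group, with 19.7 FPKM in test group IV and 19.1 FPKM in the control group.

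The APC/C, the ubiquitin ligase that ends mitosis and also works in resting cells, was represented by 4 subunits and its activator CDC20. CDC27 had 2511 fragments in test group IV and 1848 in the control group (log2 ratio 0.32, 0.23 to 0.41). CDC16, another subunit, had 5.11 FPKM in test group IV and 3.93 FPKM in the control group (0.38, 0.03 to 0.73). The subunits CDC23 and CDC26 had ratios below 1, with intervals that included no difference. CDC23 had 4.40 FPKM in test group IV and 4.64 FPKM in the control group, and CDC26 had 34 and 37 fragments. CDC20, which is made for mitosis, had 15 fragments in test group IV and 20 in the control group.

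**Figure D3:**
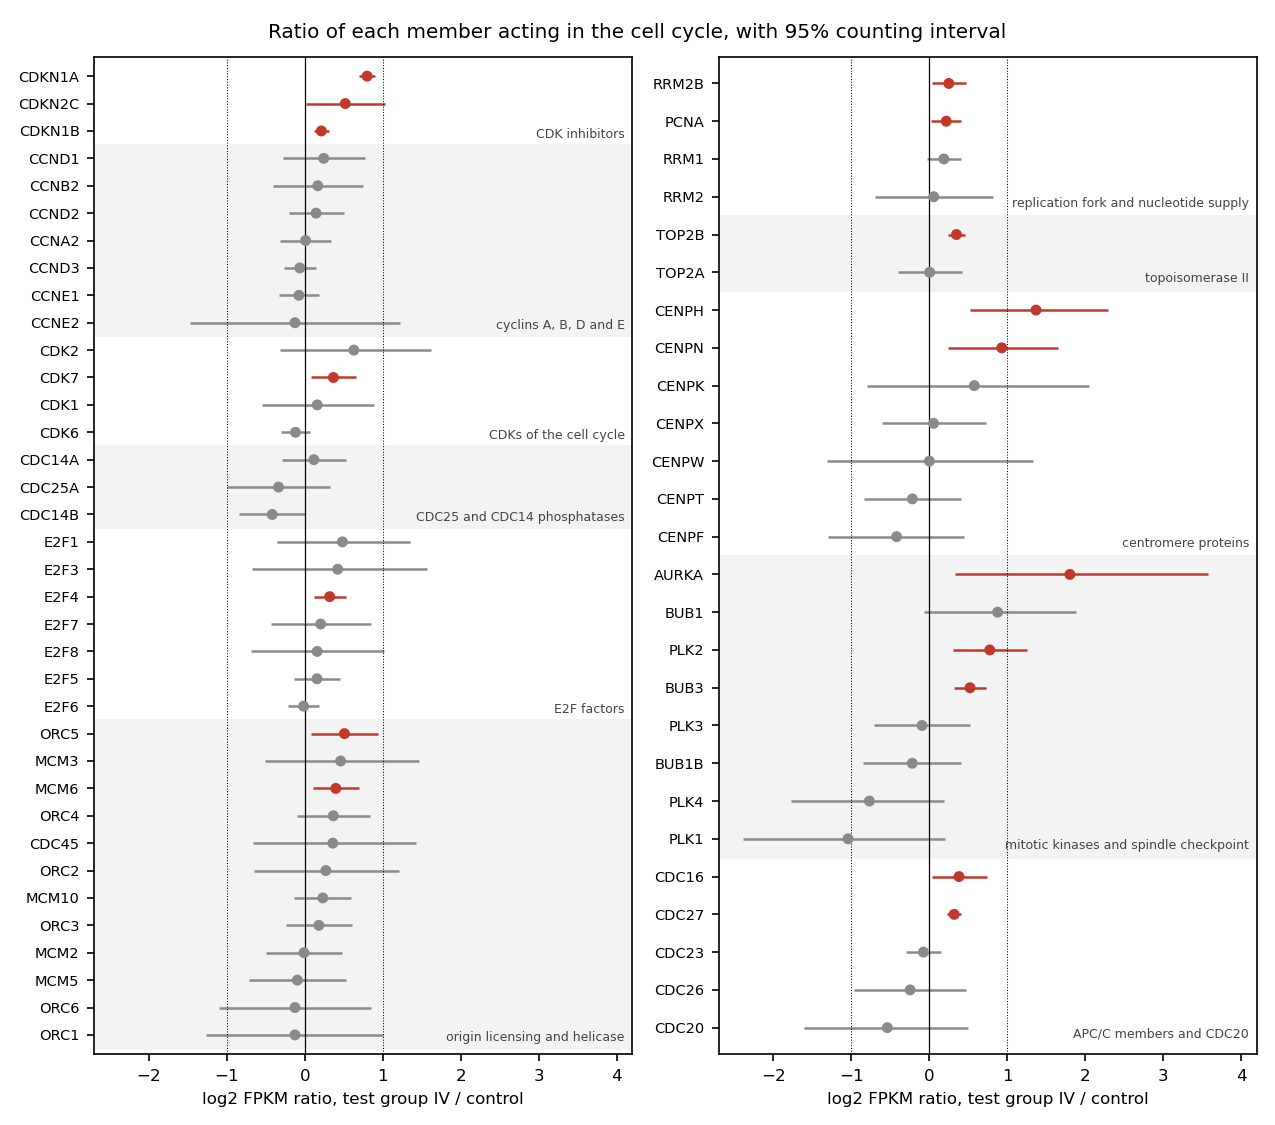
Log2 FPKM ratio of test group IV over the control group for the compared genes that act in the cycle, grouped by role, with the exact 95% counting interval as a bar. Bars in red exclude no difference, dotted lines mark 2-fold, and no bar among these genes lies wholly below 0 on the deposited scale, whereas CDC14B and CDK6 do with TMM.

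Among the genes that act in the cycle, the proliferation genes with an interval above no difference numbered 14 of 59 (23.7%), and those with an interval below it 0 of 59, against 27.3% and 14.8% of all genes on the deposited scale. With TMM these numbers were 9 (15.3%) and 2 (3.39%) of 59, the 2 being CDC14B and CDK6, against 2267 and 2452 of all 11936 genes with TMM. These shares depend on depth, because sparse genes have wide intervals. The 67 listed proliferation genes of the cycle had a median of 45 fragments in test group IV and 44 in the control group. Over all genes the medians were 107 and 93. By ratio alone, 39 of the 59 were above 1 and 20 below it, against 7194 and 4742 of all 11936 genes. On the deposited scale the median log2 ratio of the 59 genes was 0.15, with a middle range from -0.08 to 0.36. That of the genes of other pathways by name was 0.06. On the deposited scale, all 4 intervals below no difference belonged to the genes of other pathways. CDC42BPA, a kinase that responds to the GTPase CDC42 and acts on the actin cytoskeleton, had 549 fragments in test group IV and 762 in the control group (log2 ratio -0.60, -0.76 to -0.44). CDK5, best known for its role in neurons, had 134 fragments in test group IV and 167 in the control group (-0.44, -0.78 to -0.11). CDC42BPB, a relative of CDC42BPA, had 13.5 FPKM in test group IV and 14.8 FPKM in the control group, and CDK19, a kinase of the Mediator complex, 11.4 and 13.2 FPKM, with upper bounds of the log2 ratio of -0.010 and -0.011.

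Some genes of other pathways were well counted and higher in test group IV. CDC42EP3, an effector of CDC42 at actin and septin filaments, was the most abundant of all 108 genes, with 212 FPKM in test group IV and 133 FPKM in the control group, and a log2 ratio of 0.68 (0.58 to 0.78). CDC42 itself, a GTPase of cell polarity, had 27.6 FPKM in test group IV and 23.6 FPKM in the control group (0.23, 0.14 to 0.31). CDC42EP3 and CDC42BPA, both partners of CDC42, thus lay on opposite sides of no difference. CDC34, a ubiquitin-conjugating enzyme needed in yeast to enter S phase, had 488 fragments in test group IV and 318 in the control group (0.49, 0.29 to 0.70). Among the CDKs outside the cycle, CDK17 was the most abundant, with 39.7 FPKM in test group IV and 41.1 FPKM in the control group (-0.05, -0.19 to 0.10). CDK12 and CDK13, which phosphorylate RNA polymerase II, had 7.56 and 8.46 FPKM in test group IV, against 7.44 and 7.68 FPKM in the control group. MCM3AP, named after MCM3 and known for the export of mRNA, had 7.25 FPKM in test group IV and 7.41 FPKM in the control group. CDK5RAP1, an enzyme that modifies mitochondrial tRNA, had 8.72 FPKM in test group IV and 10.1 FPKM in the control group, and its interval included no difference.

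MCM9 had the highest ratio of the 96 genes compared, and its counts are small. Its product is a helicase of homologous recombination and not part of the replicative MCM helicase. It had 57 fragments in test group IV and 5 in the control group, or 1.13 and 0.108 FPKM, and a ratio of 10.5 (4.23 to 33.4). The gene lies on chromosome 3 (62923336 to 62969390), and the listed gene ASF1 lies inside it (62944793 to 62955222), with 216 fragments in test group IV and 147 in the control group. Whether the counting used the strand of the reads is not given in the sources used here, and fragments of overlapping genes cannot then be told apart. Its partner MCM8 had 147 fragments in test group IV and 114 in the control group (log2 ratio 0.24, -0.12 to 0.61). Overlap with another listed gene was found for 18 of the 108 genes.

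The 12 genes with fewer than 20 fragments were not compared. They are CDKN2A and CDKN3, CDC7, CDK15 and CDK18, and 7 CENP genes (CENPA, CENPI, CENPJ, CENPL, CENPM, CENPO and CENPP). CENPI, of the inner kinetochore, had 4 fragments in test group IV and 12 in the control group, CENPP had 7 and 2, and CENPM had 3 and 7. A library showed 3 fragments or fewer for 6 genes, and none had 0 fragments in test group IV. Their ratios went in both directions.

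Genes of the same pathways that the symbol pattern leaves out were examined as lists. These were taken from textbook knowledge, with earlier results of these data known. Of 50 replication genes, 36 were listed and 35 compared, with a median log2 ratio of 0.16, an interval above no difference for 5 (14.3%) and below it for 1 (2.86%), against 27.3% and 14.8% of all genes. CDT1, the loader of the MCM helicase, had 31 fragments in test group IV and 11 in the control group, and SLBP, which binds histone mRNA, had 27 and 6. DTL, the adaptor that marks CDT1 for degradation, had 9 fragments in test group IV and 21 in the control group. Of 76 mitosis genes, 41 were listed and 37 compared, with a median of 0.05, 7 intervals above (18.9%) and 2 below (5.41%). KIFC1, a kinesin of the spindle, had 266 fragments in test group IV and 117 in the control group (log2 ratio 1.06, 0.74 to 1.39), and MELK, NEK2 and BIRC5 had 16 to 18 fragments in test group IV and 4 to 6 in the control group, with an interval of BIRC5 that included no difference (-0.14 to 2.93). The intervals below no difference were those of the spindle genes KIF11, with 71 fragments in test group IV and 97 in the control group, and DLGAP5, with 59 in test group IV and 82 in the control group. Of the 32 RB, DREAM and checkpoint genes, 23 were compared, with a median of 0.12, 9 intervals above (39.1%) and 2 below (8.7%). CHEK2, a kinase of the DNA damage response, had 62 fragments in test group IV and 23 in the control group (1.31, 0.59 to 2.06). MYC, a driver of proliferation, had 379 fragments in test group IV and 573 in the control group (-0.72, -0.91 to -0.53), and FOXN3, a repressor, had 216 in test group IV and 257 in the control group (-0.38, -0.64 to -0.11). The 8 compared APC/C subunits and partners had a median of 0.10, with 1 interval above (12.5%) and 2 below (25%). The 16 compared cyclins of other families had a median of 0.00, with 7 above (43.8%) and 4 below (25%).

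Of the 6 lists from outside the pattern, that of antiproliferative and growth arrest genes had the median furthest from the median of all genes. All 18 listed of 28 were compared, with a median log2 ratio of -0.41, against 0.09 over all genes, 4 intervals above (22.2%) and 11 below (61.1%), against 27.3% and 14.8% of all genes, and a summed level of 1078 FPKM in test group IV and 2061 FPKM in the control group. At least 2-fold lower were 6 of them (33.3%, against 3.04% of all genes), SESN1, FOXO1, FOXO3, KLF6, GADD45B and BTG2. This list, too, was chosen with earlier results of these data known, so that its shares are no independent result. FOXO1, a transcription factor active in fasting muscle, had 555 fragments in test group IV and 1994 in the control group (log2 ratio -1.97, -2.11 to -1.83). FOXO3, its relative, had 2160 fragments in test group IV and 5676 in the control group (-1.52, -1.59 to -1.45). SESN1, a stress-responsive inhibitor of the mTOR pathway, had 10148 fragments in test group IV and 27405 in the control group (-1.56, -1.59 to -1.52). BTG1, an antiproliferative gene of the same family as BTG2, went the other way, with 1427 fragments in test group IV and 427 in the control group (1.62, 1.46 to 1.78). BTG2 had 2014 fragments in test group IV and 3915 in the control group (-1.08, -1.16 to -1.01). CDKN1A, a known target of p53 and of FOXO factors in mammals, was higher in the library in which FOXO1, FOXO3 and SESN1 were lower. Whether these levels are linked was not tested.

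**Figure D4:**
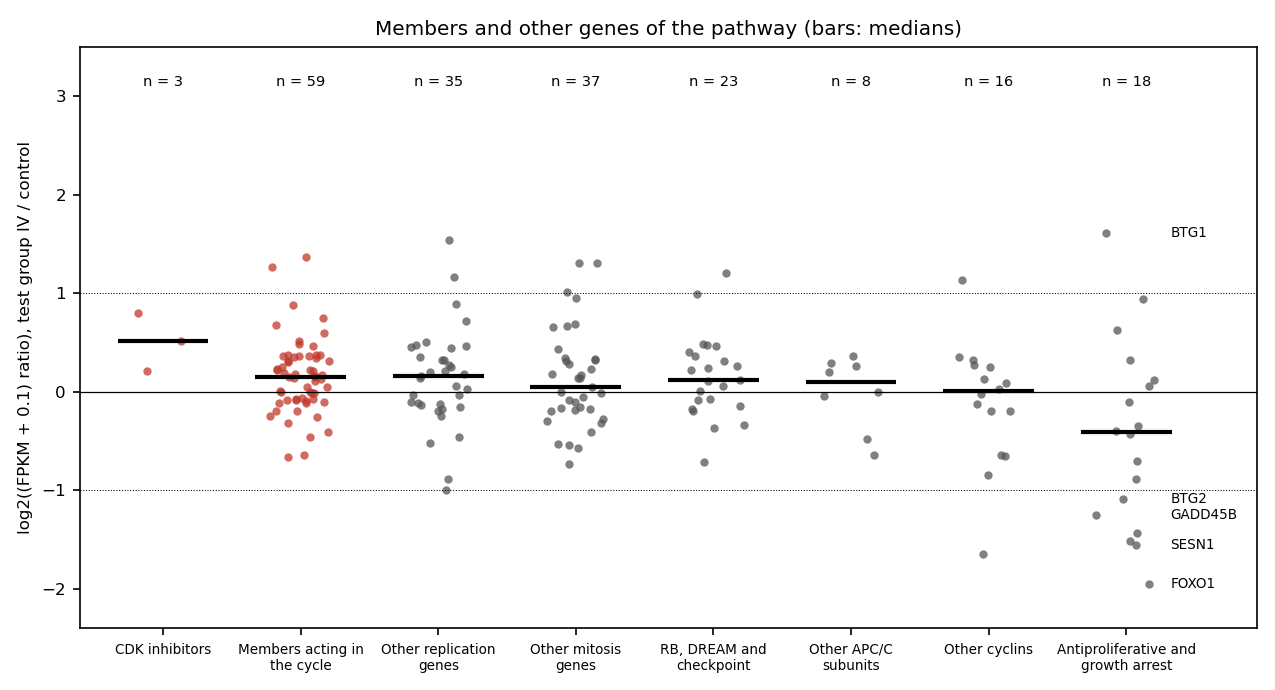
Log2 ratio of test group IV over the control group, with 0.1 added to each FPKM, for the compared genes of each list, with 1 point per gene and a bar at the median. The median lies at -0.41 for the antiproliferative and growth arrest genes and between 0.00 and 0.16 for the other lists from outside the pattern.

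Satellite cells and myoblasts are the cells of muscle itself that can divide. Of their 5 compared markers, 4 had ratios above 1 and 1 a ratio below 1, against 7194 and 4742 of all 11936 genes. MYOG, a factor of differentiating myoblasts, had 68 fragments in test group IV and 18 in the control group, and MYOD1, which acts before it, had 2790 in test group IV and 1557 in the control group. DES, which muscle fibres make too, had a log2 ratio of 0.14 (0.12 to 0.16), and MYF5 one of 0.16 (-0.22 to 0.55). CDH15 had a log2 ratio of -0.28 (-0.47 to -0.09). The part of these cells in the level of CDKN1A was not tested. The 9 melanocyte markers had a median log2 ratio of 2.17, with 6 at least 2-fold higher (66.7%, against 3.47% of all genes). These were DCT, EDNRB2, GPNMB, MLPH, PMEL and TRPM1. The paper names all of them as differentially expressed pigmentation genes in the same libraries, so that their share is no independent result. MITF, SOX10 and KIT stayed below 2-fold, with log2 ratios of 0.64 (0.53 to 0.75), 0.27 (-0.34 to 0.895) and -0.18 (-0.79 to 0.42). The proliferation genes had a median log2 ratio of 0.12.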

How the data were processed

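The authors pooled breast muscle RNA of 3 birds per group, prepared 1 directional paired-end library per pool, trimmed the reads with Seqtk, mapped them to Galgal5 with TopHat 2.0.9, used StringTie 1.3.0 to count the fragments of each gene and a Perl script for FPKM. The paper also reports TMM normalisation of the fragment numbers. The deposited FPKM values rest on a depth ratio of 1.09025, against 1.16124 with the TMM factors calculated here. The labels also name FastQC and HISAT2. The title of the series speaks of skin, the labels of breast muscle. Each gene has a fragment count, a whole number, and its FPKM, both used as deposited. The depth was 14318101 fragments in test group IV and 13135159 in the control group.

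Samples were grouped by their labels. Fold changes are ratios of the deposited FPKM. Intervals were computed from the deposited counts and the depth ratio behind the FPKM values (1.09025, SD 1.61e-05 over 14277 genes). Intervals cover counting error only and take each fragment as independent. PCR copies were not separated, so the intervals may be too narrow. Medians of lists used log2(FPKM + 0.1). With 1 library per group there was no test. Alternatives were TMM (edgeR 4.0.16), the size factors of DESeq2 1.42.0, depth without mitochondrial genes, no minimum count, at least 100 fragments, other added constants (1 FPKM for medians and 0.1 FPKM for fold counts), and only the genes acting in the cycle. R 4.3.3 and Python 3.11.15 with scipy 1.17.1 were used, and the calculation was tested on simulated data.

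The genes and lists were chosen with earlier results of these data known. Values are given for 45 genes by rule: proliferation markers, CDK inhibitors and CDKN3, genes at least 2-fold different, the 12 largest other differences with at least 100 fragments whose interval excludes no difference, and the most abundant gene of each role. Other genes named, and the complexes, were chosen after their values were seen. Coordinates are Galgal5 as deposited. GRCg7b was used for symbols only.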

Additional observations from a re-analysis of the deposited data

How the results depend on the processing

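With 1 library per group no library could be left out, and no adjusted p exists. No paired analysis was possible because each group has 1 library. Of the alternative values of the counts and medians, 61 stayed within 1.5 times the reported count or within the typical counting error of a single gene around the reported median, 9 moved further and 5 turned in sign. Even so, 16 genes had an interval above no difference with TMM, against 24, and TMM lowered the median of the proliferation genes to 0.028, against 0.12, of the replication list to 0.071, against 0.16, and of the APC/C list to 0.011, against 0.10. With TMM 8 of the 96 genes had an interval below no difference, with the depth of nuclear genes 2, and among the genes acting in the cycle 0, against 4. Without a minimum count 6 genes were past 2-fold upward and 4 downward, with at least 100 fragments 0 and 0, against 3 and 1, and with 0.1 added to each FPKM 0 were 2-fold lower. The median of the CDK inhibitors was 0.36 without a minimum, when CDKN2A enters, against 0.52. The median of the mitosis list was -0.023 with TMM, -0.014 with DESeq2 size factors and -0.029 with at least 100 fragments, against 0.052. That of the other cyclins was -0.086 with TMM and -0.075 with DESeq2 size factors, against 0.004. Of 180 alternative log2 ratios of the 45 genes, 178 lay inside the counting interval. The sign turned in 12 of them, for 7 genes whose intervals include no difference (AURKAIP1, CCNA2, CENPX, RRM2 and TOP2A with TMM and DESeq2 size factors, E2F6 and MCM2 with the depth of nuclear genes). Outside the interval were CDC27, 0.23 with TMM, and MCM9, 0.95 with 1 FPKM added. Depth limits the sparse genes: for CDK1, with 39 fragments in test group IV and 32 in the control group, the interval of the ratio ran from 0.683 to 1.84.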

Other observations

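CDK7 works in a trimeric kinase with the cyclin CCNH and the assembly factor MNAT1, and the 3 genes had similar ratios. CCNH had 340 fragments in test group IV and 248 in the control group, MNAT1 had 457 in test group IV and 352 in the control group, and CDK7 had 249 in test group IV and 177 in the control group. The log2 ratios were 0.33 for CCNH, 0.25 for MNAT1 and 0.37 for CDK7. The trio was looked at after the values were seen. CENPH and CDK7 lie close together on chromosome Z, with MRPS36 between them. MRPS36, which begins 118 bases from CENPH, had 189 fragments in test group IV and 190 in the control group, a log2 ratio of -0.13, against 1.37 for CENPH.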
